A study of Mus musculus with 12 samples.

Results

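Calcium-activated potassium channels end bursts of firing and set the pause that follows an action potential. Their genes were described here in the cerebellum of mice with spinocerebellar ataxia 1 (SCA1) and of wild-type (WT) mice, with and without voluntary running. The 6 genes were taken by name: Kcnma1, Kcnmb2 and Kcnmb4 of the BK channel, and Kcnn1, Kcnn2 and Kcnn3 of the SK channels. They are 6 of 56941 genes in the count tables, and all 6 were among the 20341 genes with enough counts to be tested.

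Bulk cerebellar RNA came from 12 mice, 3 in each of 4 groups, and the age given for all of them is 16 weeks. Per the paper, wheels were taken out before behavioural testing, and tissue was collected after the last test. WT sedentary and WT exercise mice were C57BL/6J littermates, and SCA1 sedentary and SCA1 exercise mice were Atxn1154Q/2Q heterozygotes, which carry an expanded CAG repeat knocked into 1 copy of Atxn1 in every cell that uses the gene. Exercise mice lived alone with a running wheel for 12 weeks, from 4 to 16 weeks of age, whereas sedentary mice were housed in groups, so running and housing cannot be told apart in these RNA data. The paper reports no effect of solo housing on motor or cognitive performance, and RNA was not among the measures given for that control. Males and females were used, the sex of each mouse was not given in the labels, and each library is named below by its group and mouse number.

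BK channels open when the membrane is depolarized and calcium rises at the same time, and their large current repolarizes the cell and makes the fast part of the afterhyperpolarization. SK channels carry a small current, need no depolarization, and sense calcium through calmodulin bound to their tails. In Purkinje cells, the sole output neurons of the cerebellar cortex, both kinds keep the spontaneous firing regular, and loss of either makes firing irregular and movement uncoordinated.

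Kcnma1 encodes the BK pore, and Kcnn3 encodes one of the SK pores. Their promoters are shown because these are the 2 members with an unadjusted p under 0.05 between sedentary SCA1 and WT mice, though neither was called. Each line gives the 250 bases before the start of the main annotated transcript in GRCm39, written 5′ to 3′ on the strand of the gene, with each CpG dinucleotide in capitals. Kcnma1 lies on the minus strand at chr14:24054975-24055224 and Kcnn3 on the plus strand at chr3:89427210-89427459. The annotated Kcnma1 gene begins further upstream, at chr14:24064559, so its 250 bases lie inside the gene, downstream of another annotated transcript start.
Kcnma1: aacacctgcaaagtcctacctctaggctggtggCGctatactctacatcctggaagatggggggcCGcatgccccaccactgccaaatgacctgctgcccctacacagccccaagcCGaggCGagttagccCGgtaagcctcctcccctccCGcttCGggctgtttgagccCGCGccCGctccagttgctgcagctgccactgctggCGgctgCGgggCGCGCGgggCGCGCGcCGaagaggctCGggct
Kcnn3: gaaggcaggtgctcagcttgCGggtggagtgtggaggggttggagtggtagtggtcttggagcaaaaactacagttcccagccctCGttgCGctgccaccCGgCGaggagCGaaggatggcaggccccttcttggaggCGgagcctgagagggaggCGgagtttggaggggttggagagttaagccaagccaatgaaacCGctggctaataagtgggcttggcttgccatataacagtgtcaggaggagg

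The Kcnma1 window held 20 CpG dinucleotides and was 67.6% G or C, and the Kcnn3 window held 9 and was 59.2% G or C. The medians over 21757 gene promoters of the same length were 8 dinucleotides and 53.2%. Of the other members, Kcnmb4 held 29 CpG dinucleotides, Kcnn2 held 22, Kcnn1 held 10 and Kcnmb2 held 4. The binding motif of Cic, a repressor that binds ataxin-1, was searched for on both strands as TGAATGAA, TGAATGGA, TCAATGAA or TCAATGGA and was in none of the 6 windows and in 3.03% of all promoters. The cyclic AMP response element (TGACGTCA) was in none of the 6 and in 1.7% of all promoters, and TATAAA was in none of the 6 and in 11.9%. The GC box (GGGCGG) was in the Kcnmb4 window alone, 4 times, and in 36.3% of all promoters. The span of the Kcnma1 gene overlaps a non-coding gene on the other strand, 4930519K11Rik, which had 14 to 35 counts in each library.

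The 12 libraries held 20556802 to 32127508 read pairs counted on genes on the sequenced strand. At this depth Kcnma1 had 6967 to 12063 counts in each library, Kcnmb4 812 to 1575, Kcnn2 1005 to 1554, Kcnn3 310 to 735 and Kcnn1 110 to 371. Kcnmb2 had only 10 to 70, and its fold changes between any pair of groups carry standard errors above 0.5 on the log2 scale. The targeted gene, Atxn1, is still transcribed from both alleles of the knock-in mouse, so its level does not check the labels. It was 153 ± 8.28 counts per 1e6 counts on genes (CPM) in WT sedentary mice and 172 ± 17.9 CPM in SCA1 sedentary mice (SD, n = 3), a log2 fold change (log2FC) of 0.17 (adjusted p = 0.636, edgeR quasi-likelihood test with Benjamini-Hochberg adjustment).

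The libraries of SCA1 sedentary mouse 16 and SCA1 exercise mouse 55 stood apart from the other 10. Both had 6.33% to 6.38% of read pairs mapped to more than 1 place, against 2.08% to 3.46% in the others. The summed level of 3 Hox genes of the hindbrain outside the cerebellum (Hoxa5, Hoxb3 and Hoxb5) was 22.8 to 27.4 CPM in these mice and 0 to 2.02 CPM in the others. Markers of granule cells (8 genes) summed to 3142 to 4073 CPM against 5179 to 6358 CPM. Markers of oligodendrocytes (5 genes) summed to 5209 to 6454 CPM against 2311 to 3868 CPM, and those of Golgi and glycinergic neurons (3 genes) to 324 to 371 CPM against 149 to 186 CPM. Of those 3 genes, Slc6a5 and Lgi2 were higher in the 2 mice than in all the others. Grm2 was not, at 18.2 and 17.4 CPM against 15.9 to 22.5 CPM. Both mice are SCA1, so the main fold changes of the channel genes are also given without them. Those of the marker and pathway lists are given with all 12 libraries only. For Kcnmb2, Kcnmb4, Kcnn1 and Kcnn3 the 2 mice lay outside the range of the other 10. The share of all genes that did so was not counted.

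The members differed far more from each other than between groups. Read per kilobase of exon, Kcnma1 was the most abundant, with a mean over 12 libraries of 23.1 ± 3.40 CPM per kb (SD). Kcnmb4 followed at 7.17 ± 0.958, Kcnn2 at 4.42 ± 0.381, Kcnn3 at 1.50 ± 0.346, Kcnn1 at 1.33 ± 0.395 and Kcnmb2 at 0.364 ± 0.170 CPM per kb. Kcnma1 lay above Kcnmb4, Kcnmb4 above Kcnn2, Kcnn2 above Kcnn3 and Kcnn1 above Kcnmb2 in 12 of 12 libraries. Kcnn3 was higher than Kcnn1 in 10 of 12 libraries, and their ranges overlapped (1.25 to 2.48 and 0.935 to 2.31 CPM per kb). With the length of the longest transcript in place of all exons the order of the 6 means was the same, and Kcnn3 was the higher in 12 of 12 libraries, with ranges that still overlapped. With unstranded counts Kcnmb4 fell below Kcnn2 in 12 of 12 libraries.

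**Figure D1:**
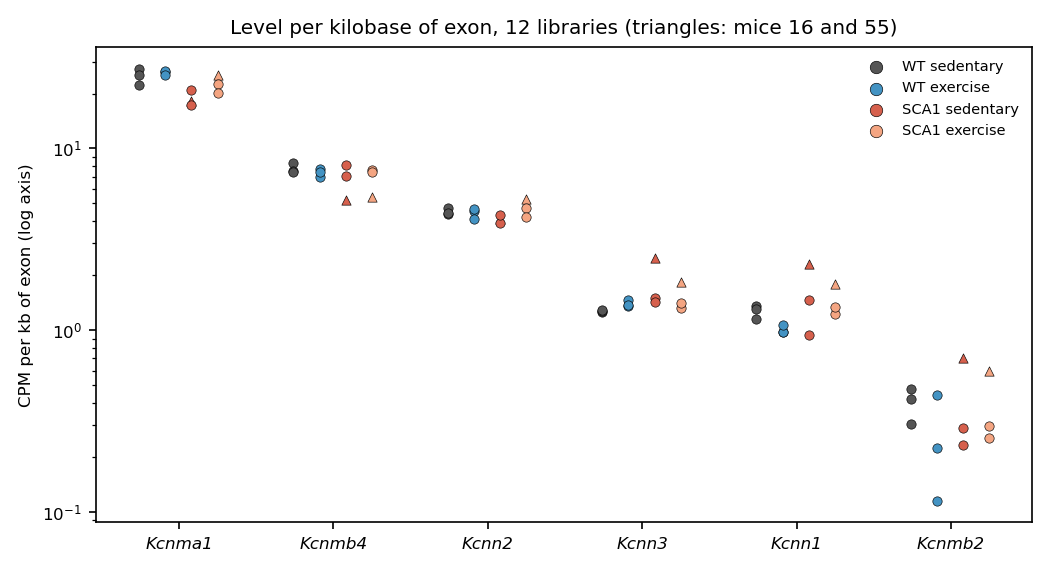
Level of the 6 channel genes in each of 12 libraries, in CPM per kb of exon on a log axis, coloured by group, with triangles for mice 16 and 55. Kcnma1 lies between 17.4 and 27.4 CPM per kb in every library, whereas Kcnmb2 does not pass 0.705, and Kcnn3 and Kcnn1 overlap.

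Kcnma1 (ENSMUSG00000063142), the BK pore, is carried on the minus strand at chr14:23339499-24064559. It was 381, 466 and 428 CPM in WT sedentary mice 116, 117 and 192, and 309, 296 and 355 CPM in SCA1 sedentary mice 16, 194 and 195. All 3 SCA1 sedentary mice lay below all 3 WT sedentary mice, and the highest of them was 355 CPM against a lowest WT value of 381 CPM. The mean was 0.753 times that of WT mice, a log2FC of −0.41 ± 0.12 (SE, 95% interval −0.66 to −0.16). The unadjusted p was 0.00409 and the adjusted p 0.275 with edgeR, so Kcnma1 was not called. The exact permutation test of 3 against 3 mice (two-sided) gave p = 0.1, which is the smallest that 20 arrangements allow.

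A gene was called where its adjusted p was under 0.05 and its log2FC over 0.5 in size, and in this comparison that held for 0.0344% of the genes tested and for 0 of the 6 members. An unadjusted p under 0.05 was found for 10.1% of genes tested and for 2 members, Kcnma1 and Kcnn3. With DESeq2, 1.03% of genes with an adjusted p were called and 0 of 6 members. Its unadjusted p was under 0.05 for 2 members and for 6.41% of 35116 genes, a larger set that includes genes with few counts. Every SCA1 sedentary mouse lay below every WT sedentary mouse in 5.76% of genes tested and in 2 members, Kcnma1 and Kcnn2, and above in 5.6% of genes and in 1 member, Kcnn3.

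Kcnma1 was 447, 454 and 431 CPM in WT exercise mice 121, 197 and 201. It was 428, 381 and 341 CPM in SCA1 exercise mice 55, 122 and 198. Every SCA1 exercise mouse lay below every WT exercise mouse, with 428 against 431 CPM at the nearest. How many of all genes did so was not counted. The log2FC was −0.21 ± 0.12 (SE, 95% interval −0.46 to 0.04, edgeR unadjusted p = 0.0936, adjusted p = 0.960). Pooling both activity groups, Kcnma1 in SCA1 mice was 0.807 times the WT level, a log2FC of −0.31 ± 0.08 (SE, 95% interval −0.49 to −0.13, edgeR unadjusted p = 0.00254, adjusted p = 0.211). The exact permutation test within activity groups gave p = 0.005, the smallest that its 400 arrangements allow. DESeq2 gave an adjusted p of 0.0429 for the same comparison, and the size stayed under the limit of 0.5. Of the 6 SCA1 mice, 4 had less Kcnma1 than the lowest of the 6 WT mice, a count not made for all genes.

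In this joint comparison edgeR called 0.118% of genes tested and 0 of 6 members, and DESeq2 called 0.833% of genes with an adjusted p and 0 of 6 members. An unadjusted p under 0.05 was found for 9.81% of genes with edgeR and for 3 members, Kcnma1, Kcnn1 and Kcnn3. With DESeq2 it was found for 6.49% of the larger set of 35116 genes and again for 3 members. Without mice 16 and 55 the Kcnma1 difference was about as large. It was −0.37 between sedentary groups (unadjusted p = 0.00522, adjusted p = 0.0969 with edgeR) and −0.33 over both activity groups (unadjusted p = 0.000979, adjusted p = 0.0621), and −0.29 between exercise groups (unadjusted p = 0.0215, adjusted p = 0.573).

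Kcnma1 was higher in SCA1 exercise than in SCA1 sedentary mice by 0.26 ± 0.12 on the log2 scale (SE, 95% interval 0.01 to 0.51, edgeR unadjusted p = 0.0441, adjusted p = 0.999), a mean of 383 against 320 CPM. The groups overlapped, since SCA1 exercise mouse 198 (341 CPM) lay below SCA1 sedentary mouse 195 (355 CPM), and the exact permutation p was 0.2. Without mouse 55 the difference was 0.19 (unadjusted p = 0.175 with edgeR), and without mice 16 and 55 it was 0.15 (unadjusted p = 0.237). In WT mice the difference with exercise was 0.06 ± 0.12 (95% interval −0.19 to 0.31). The difference between these responses, the interaction, was 0.20 ± 0.16 (95% interval −0.16 to 0.55, edgeR unadjusted p = 0.250, adjusted p = 1.00) and 0.081 without both mice (unadjusted p = 0.608), so a larger response in SCA1 mice was not shown. SCA1 exercise and WT sedentary mice differed by −0.15 (95% interval −0.40 to 0.10). Gene counts sum over the 34 annotated transcripts of Kcnma1 and do not tell its splice forms apart.

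**Figure D2:**
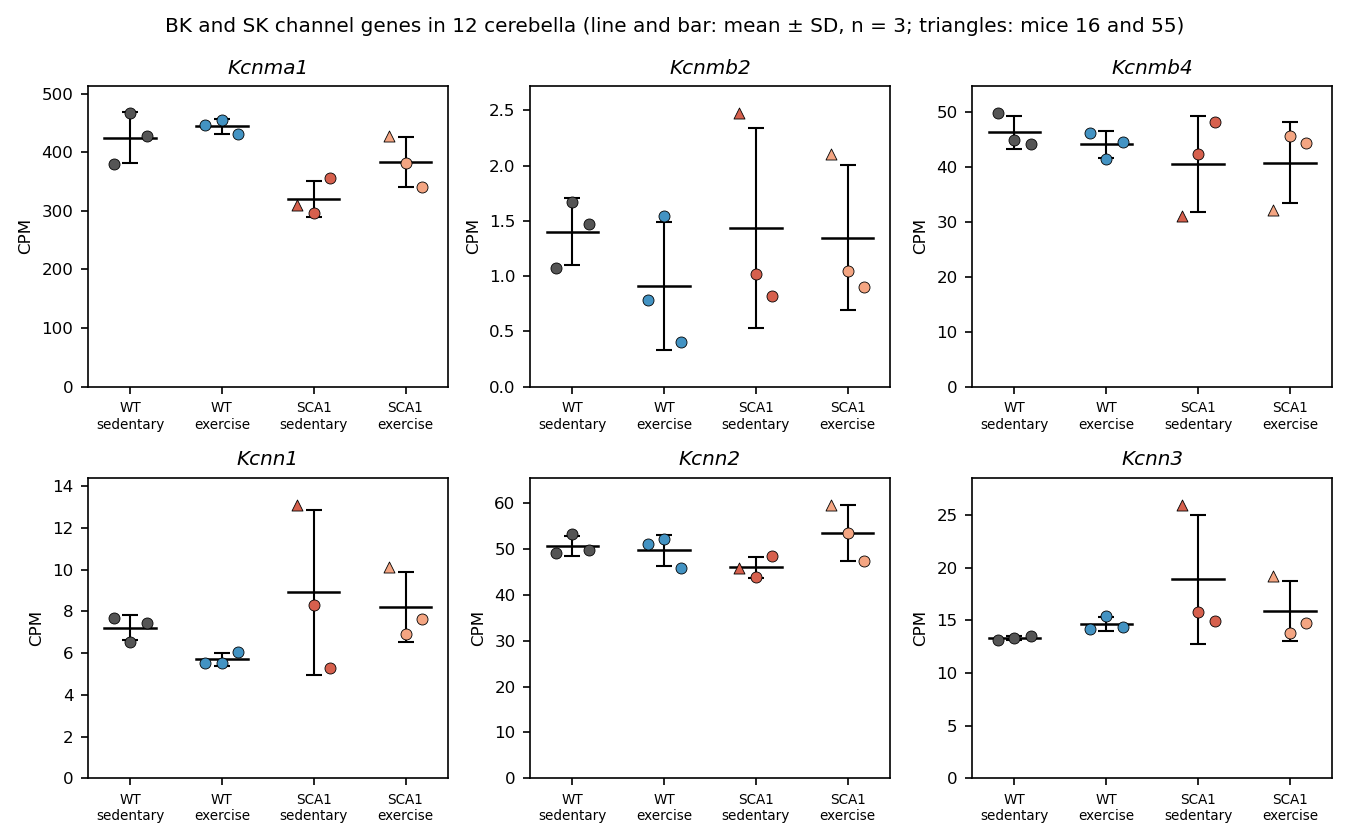
CPM of each channel gene in each mouse (points; triangles are mice 16 and 55), by group, with the mean and SD of 3 mice (line and bar) and each vertical axis starting at 0. Kcnma1 lies lowest in SCA1 sedentary mice (296 to 355 CPM), and the highest Kcnn3, Kcnn1 and Kcnmb2 values belong to mouse 16.

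The BK beta subunits sit beside the pore and change its calcium sensitivity and speed, and the beta4 subunit encoded by Kcnmb4 is the main one of neurons, where it slows gating. Kcnmb4 (ENSMUSG00000054934, minus strand, chr10:116253766-116309848) was 49.7, 44.9 and 44.1 CPM in WT sedentary mice and 46.2, 41.4 and 44.5 CPM in WT exercise mice. It was 31.0, 42.3 and 48.2 CPM in SCA1 sedentary mice and 32.2, 45.5 and 44.3 CPM in SCA1 exercise mice. The low value in each SCA1 group is that of mouse 16 or mouse 55, and the other 4 SCA1 mice lay within the range of the 6 WT mice (41.4 to 49.7 CPM). The log2FC between sedentary groups was −0.19 ± 0.16 (SE, 95% interval −0.55 to 0.16, edgeR adjusted p = 0.718). Without mice 16 and 55 it was −0.01, and over both activity groups it was then 0.01 in place of −0.15.

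Kcnmb4 shares its locus with 2 non-coding genes of the other strand. One of them, Kcnmb4os2, had 54 to 128 counts in each library, and the unstranded count of Kcnmb4 was only 14.4% to 33.6% of the count on its own strand. The values above use the gene's own strand. Kcnn2 also overlaps genes on the other strand, and its unstranded count was 66.3% to 73.2% of the stranded one, whereas the share was 91.8% to 95.2% for Kcnma1 and 100% to 101% for Kcnn3.

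Kcnmb2 encodes beta2, which inactivates BK channels through its N-terminal end. The gene (ENSMUSG00000037610, plus strand, chr3:31956656-32254329) was the least abundant member at 1.07, 1.67 and 1.47 CPM in WT sedentary mice and 0.789, 1.54 and 0.404 CPM in WT exercise mice. It was 2.47, 1.02 and 0.818 CPM in SCA1 sedentary mice and 2.10, 1.04 and 0.900 CPM in SCA1 exercise mice, with the high values again in mice 16 and 55. The log2FC between sedentary groups was 0.06 with a 95% interval of −1.07 to 1.18, so neither a doubling nor a halving could be told from no change at this depth. Without both mice it was −0.58 (edgeR). The span of Kcnmb2 overlaps that of Gm37834, an annotated gene on the same strand with 8 to 32 counts in each library. Counting by strand does not separate these genes, and whether their exons overlap is not shown here.

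Kcnn2 encodes SK2, the SK channel of Purkinje cells, and was the most abundant SK gene. It lies on the plus strand at chr18:45401927-45818953 (ENSMUSG00000054477). It was 49.0, 53.2 and 49.7 CPM in WT sedentary mice and 51.2, 52.2 and 45.9 CPM in WT exercise mice. It was 45.9, 43.8 and 48.4 CPM in SCA1 sedentary mice and 59.6, 53.4 and 47.3 CPM in SCA1 exercise mice. Every SCA1 sedentary mouse lay below every WT sedentary mouse, but by a narrow gap (48.4 against 49.0 CPM). The mean was 0.909 times that of WT mice, a log2FC of −0.14 ± 0.10 (SE, 95% interval −0.36 to 0.09, edgeR unadjusted p = 0.206, adjusted p = 0.687). The interval leaves out a fall of more than 0.36 and a rise of more than 0.09.

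With exercise in SCA1 mice Kcnn2 differed by 0.22 ± 0.10 (SE, 95% interval −0.01 to 0.44, edgeR unadjusted p = 0.0582, adjusted p = 0.999). In WT mice it differed by −0.03 ± 0.10 (95% interval −0.25 to 0.20). The interaction was 0.24 ± 0.15 (95% interval −0.08 to 0.56, adjusted p = 1.00 with edgeR). The highest value, 59.6 CPM, was that of mouse 55. Without it the difference in SCA1 mice was 0.14 (unadjusted p = 0.230), and without mice 16 and 55 it was 0.13 (unadjusted p = 0.291, both with edgeR), with an interaction of 0.14 and a difference between sedentary groups of −0.12. Across activity groups Kcnn2 was 49.7 CPM in SCA1 and 50.2 CPM in WT mice on average, a log2FC of −0.02 (95% interval −0.18 to 0.14).

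Kcnn3 encodes SK3 (ENSMUSG00000000794, plus strand, chr3:89427460-89582439). It was 13.1, 13.3 and 13.5 CPM in WT sedentary mice, the tightest of its 4 groups with a coefficient of variation of 1.44%. It was 14.2, 15.4 and 14.4 CPM in WT exercise mice, 25.95, 15.8 and 14.9 CPM in SCA1 sedentary mice and 19.2, 13.8 and 14.7 CPM in SCA1 exercise mice. All 3 SCA1 sedentary mice lay above all 3 WT sedentary mice, and mouse 16 lay far above the other 2. The log2FC between sedentary groups was 0.51 ± 0.20 (SE, 95% interval 0.07 to 0.94, edgeR unadjusted p = 0.0252, adjusted p = 0.422). Over both activity groups it was 0.31 ± 0.14 (SE, edgeR unadjusted p = 0.0458, adjusted p = 0.502, exact permutation p = 0.045). Without mice 16 and 55 these were 0.22 (unadjusted p = 0.0657) and 0.10 (unadjusted p = 0.243, both with edgeR), smaller than with all 12 libraries.

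Kcnn1 encodes SK1 (ENSMUSG00000002908, minus strand, chr8:71294693-71316409). It was 7.67, 6.54 and 7.43 CPM in WT sedentary mice and 5.52, 5.51 and 6.06 CPM in WT exercise mice. It was 13.1, 8.32 and 5.29 CPM in SCA1 sedentary mice and 10.1, 6.92 and 7.63 CPM in SCA1 exercise mice. SCA1 sedentary mice held both the highest and the lowest value of the 12 mice, with a coefficient of variation of 44.2%. The log2FC was 0.31 ± 0.27 between sedentary groups (SE, 95% interval −0.28 to 0.89) and 0.53 ± 0.27 between exercise groups (SE, 95% interval −0.06 to 1.12), with adjusted p of 0.728 and 0.960 (edgeR). Over both activity groups it was 0.42 ± 0.19 (SE, edgeR unadjusted p = 0.0491, adjusted p = 0.507, exact permutation p = 0.12). Without mice 16 and 55 the sedentary value was −0.06 and the value over both activity groups 0.15 (unadjusted p = 0.284, edgeR).

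**Figure D3:**
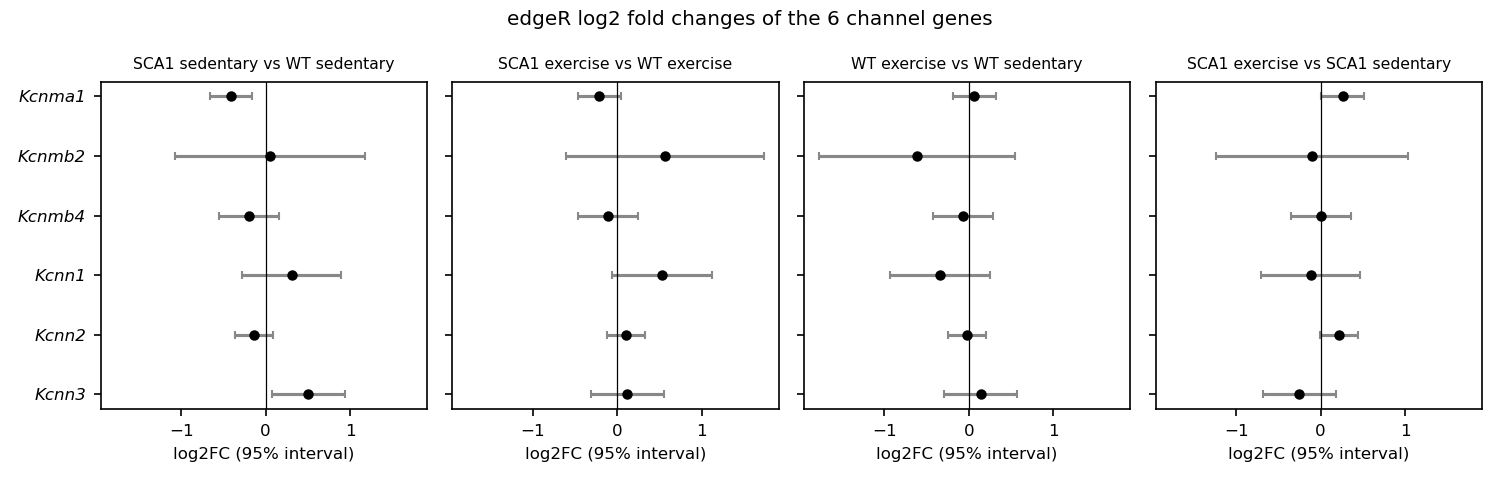
Log2FC (points) and 95% interval (bars) of the 6 channel genes from the edgeR fit to 12 libraries, for SCA1 against WT within each activity group and exercise against sedentary within each genotype. The interval leaves out 0 for Kcnma1 and Kcnn3 between sedentary groups and for Kcnma1 with exercise in SCA1 mice, and it is widest for Kcnmb2.

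No channel gene was called with exercise in either genotype, and 0% of the genes tested were called in the comparisons of WT exercise with WT sedentary mice, SCA1 exercise with SCA1 sedentary mice, SCA1 exercise with WT exercise mice and SCA1 exercise with WT sedentary mice. It was 0% also for the interaction and for exercise over both genotypes. With DESeq2 0 of 6 members were called in any of these. Of genes with an adjusted p, DESeq2 called 0.268% with exercise in WT mice, 0.00285% with exercise in SCA1 mice and 0.00854% between exercise groups. It called 0.144% between SCA1 exercise and WT sedentary mice, 0.0057% for the interaction and 0.0171% for exercise over both genotypes. An unadjusted p under 0.05 with edgeR was found for 4.69% of genes and 0 members in WT mice with exercise. It was found for 2.17% of genes and 1 member, Kcnma1, in SCA1 mice with exercise, and every SCA1 exercise mouse lay above every SCA1 sedentary mouse in 2.43% of genes and below in 2.07%, with 0 members in either set. The shares were 2.93% between exercise groups, 4.21% between SCA1 exercise and WT sedentary mice, 3.78% for the interaction and 3.54% for exercise over both genotypes, with 0 members in each. In WT mice the log2FC with exercise was −0.34 ± 0.27 (SE) for Kcnn1 and 0.14 ± 0.20 for Kcnn3. The unadjusted p were 0.234 and 0.501 and the adjusted p 0.958 and 0.962 (edgeR).

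In bulk tissue, fewer cells of a type and less RNA per cell cannot be told apart. Of 14 Purkinje cell markers, a list without Kcnma1, 13 were lower in the sedentary SCA1 group than in the WT one, 2 were called, 12 had an unadjusted p under 0.05 (edgeR) and the median log2FC was −0.55, against 0.02 over all genes tested. Their summed level was 8575 to 9609 CPM in WT sedentary, 9001 to 9558 CPM in WT exercise, 5305 to 6976 CPM in SCA1 sedentary and 6984 to 8614 CPM in SCA1 exercise mice. Itpr1 was the largest part of this sum, at a mean of 4691 CPM in WT sedentary and 3473 CPM in SCA1 sedentary mice. Mouse 16 had the lowest sum, 5305 CPM, against 6732 and 6976 CPM in the other SCA1 sedentary mice. Mouse 55 had the highest of the SCA1 exercise mice, 8614 CPM, against 8200 and 6984 CPM. Fold changes of this list without these mice are not given here. The group means of Kcnma1 and of the Purkinje sum were both lowest in SCA1 sedentary mice, and the list was higher with exercise in SCA1 mice in 14 of 14 genes (median log2FC 0.31, 6 with an unadjusted p under 0.05 and 0 called by edgeR). Pcp4, a calmodulin-binding peptide of Purkinje cells, differed the most in that list between sedentary groups (10.8 ± 0.455 against 24.3 ± 1.23 CPM, SD, n = 3, log2FC −1.17, adjusted p = 0.0126 with edgeR). The part of these markers in the Kcnma1 difference was not tested.

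Granule cell markers were lower in 8 of 8 genes between sedentary groups (median log2FC −0.45, 6 with an unadjusted p under 0.05, 0 called by edgeR), with a summed level of 6105 to 6358 CPM in WT sedentary and 3142 to 5775 CPM in SCA1 sedentary mice. Kcnmb4 was lowest in mice 16 and 55, which also had the lowest granule cell sums. Kcnn1, Kcnn3 and Kcnmb2 were highest in the same 2 mice, which had the highest sums of the oligodendrocyte, the Golgi and glycinergic, and the hindbrain lists. The part of these tissues in those values was not tested. Of the molecular layer interneuron markers 2 of 5 were higher in SCA1 sedentary mice (median log2FC −0.02). Bergmann glia and astrocyte markers were lower in 4 of 6 genes (median −0.22) and microglial markers higher in 4 of 5 (median 0.03), with 0 called in either list. Endothelial markers were lower in 4 of 4 genes (median −0.04), unipolar brush cell markers lower in 2 of 3 (median −0.34) and smooth muscle and pericyte markers higher in 3 of 5 (median 0.16), again with 0 called by edgeR. Choroid plexus markers ranged from 12.3 to 404 CPM in WT sedentary mice and from 807 to 1891 CPM in WT exercise mice, and from 13.8 to 1151 CPM in SCA1 sedentary and 515 to 1580 CPM in SCA1 exercise mice. They were higher in 4 of 4 genes between sedentary groups (median log2FC 2.04, 2 with an unadjusted p under 0.05, 0 called by edgeR), and their part in the channel values was not tested.

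**Figure D4:**
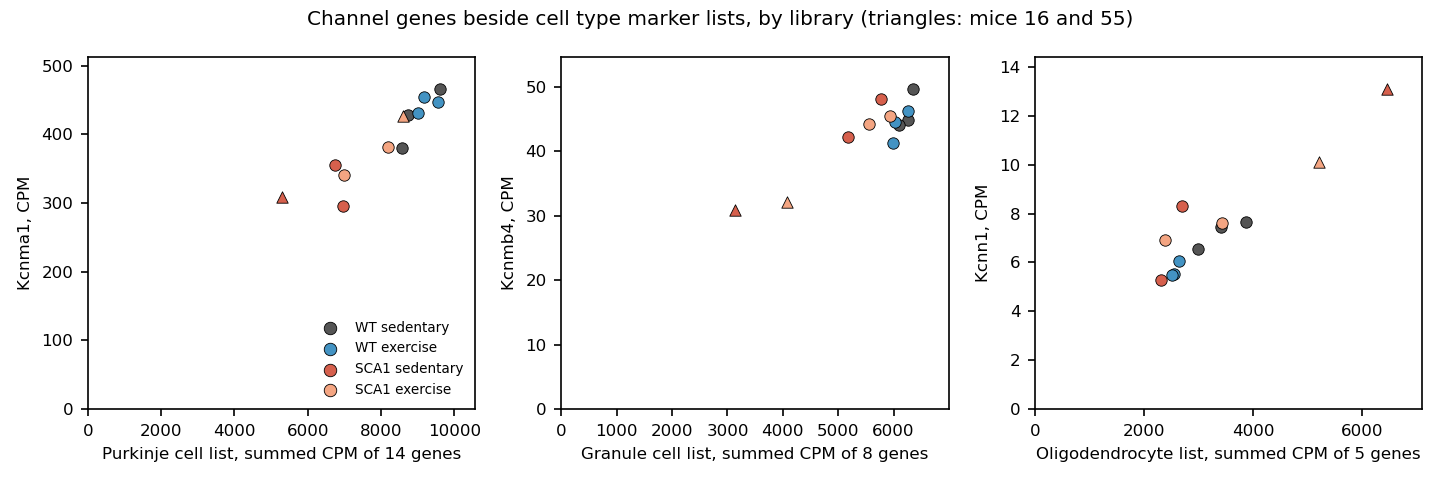
CPM of Kcnma1, Kcnmb4 and Kcnn1 in each library against the summed CPM of the Purkinje cell, granule cell and oligodendrocyte lists, coloured by group, with triangles for mice 16 and 55 and both axes starting at 0. Kcnma1 is low where the Purkinje sum, of which Itpr1 is the largest part, is low. The 2 marked mice lie apart from the others for Kcnmb4 and Kcnn1.

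Of the other BK and SK subunits, 3 of 7 had enough counts to be tested, and Kcnmb3, Kcnn4, Lrrc26 and Lrrc52 had at most 10 counts in any library. Lrrc38, a gamma subunit that lets BK channels open at more negative voltage, was 4.63 ± 0.184 CPM in SCA1 sedentary and 6.20 ± 0.522 CPM in WT sedentary mice (SD, n = 3), without overlap (log2FC −0.42, edgeR unadjusted p = 0.0463, adjusted p = 0.486). Kcnmb1 and Lrrc55 overlapped between the groups. Of the 3 other Slo channels, Kcnt1, Kcnt2 and Kcnu1, 0 had an unadjusted p under 0.05 in any comparison with edgeR.

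Calmodulin, casein kinase 2 and protein phosphatase 2A are held on SK channels and set their calcium sensitivity. Of these 8 genes 7 were lower in SCA1 sedentary mice, 0 were called and 1 had an unadjusted p under 0.05, with a median log2FC of −0.13. That gene was Calm2, a calmodulin gene, at 370 ± 14.9 CPM against 518 ± 71.6 CPM (SD, n = 3, log2FC −0.49, edgeR unadjusted p = 0.00152, adjusted p = 0.219), without overlap. Calm3 overlapped between the groups (log2FC 0.14).

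The calcium that opens these channels comes through voltage-gated channels and from internal stores. Of 12 such genes, 8 were higher and 4 lower in SCA1 sedentary mice and 0 were called, with an unadjusted p under 0.05 for 2 in each direction (edgeR). Itpr1, the store receptor of Purkinje cells, was 3473 ± 639 CPM against 4691 ± 353 CPM (SD, n = 3, log2FC −0.43, edgeR unadjusted p = 0.0146, adjusted p = 0.370). Itpr1 is also on the Purkinje cell list. Mouse 16 had the lowest Itpr1, 2754 CPM, against at least 3692 CPM in mice other than 16 and 55. Ryr3, another store channel, was 112 ± 22.1 against 68.2 ± 13.9 CPM (log2FC 0.71, edgeR unadjusted p = 0.00161, adjusted p = 0.221). Cacna1a, the P/Q-type channel that feeds both BK and SK channels in Purkinje cells, overlapped between the groups (log2FC 0.10 ± 0.27, SE).

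Of 11 calcium buffers and pumps, 9 were lower in SCA1 sedentary mice and 1 was called, with an unadjusted p under 0.05 for 5 lower and 1 higher gene (edgeR), and the median log2FC was −0.26. The gene called was Calb1, the calbindin of Purkinje cells, at 349 ± 39.6 CPM against 615 ± 65.2 CPM (SD, n = 3, log2FC −0.82, adjusted p = 0.0398 with edgeR). Calb1 is also among the called genes of the Purkinje cell list, so this is not a separate result. It was higher in SCA1 exercise than in SCA1 sedentary mice by 0.42 ± 0.11 (SE, edgeR unadjusted p = 0.00293, adjusted p = 0.999). Slc8a3, a sodium-calcium exchanger, was higher in SCA1 sedentary mice (94.7 ± 3.04 against 66.7 ± 9.19 CPM, log2FC 0.51, edgeR unadjusted p = 0.000687, adjusted p = 0.162). With exercise in SCA1 mice, 0 genes of any of these lists were called by edgeR.

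Likeness to each member was the Pearson correlation of log2 CPM over the 12 libraries among 11138 genes with a mean log2 CPM of at least 3, given as a description, since all points share the same libraries. Kcnma1 was most like Gpr63 (r = 0.945), Prkg1 (0.938) and Dgkh (0.936), and without mice 16 and 55 these were 0.941, 0.922 and 0.915 over 10 libraries. Kcnn2 was most like Mt2 (0.921), Mt1 (0.832) and Sephs1 (0.807), which were 0.848, 0.731 and 0.800 without the 2 mice. Kcnn1 was most like Chchd10 (0.976), Sult4a1 (0.973) and Sdf2 (0.968), which were 0.930, 0.946 and 0.892. Kcnn3 was most like Kif21a (0.981), Zdbf2 (0.970) and Ppm1f (0.970), of which the last 2 dropped to 0.611 and 0.616 without mice 16 and 55. Kcnmb4 was most like Ppih (0.969), Parp6 (0.960) and Khdc4 (0.959), which were 0.867, 0.636 and 0.767 without them. For Kcnmb2, at 10 to 70 counts, the most like were Dnajc28 (0.909), Dmp1 (0.890) and Mthfd2 (0.879).

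Among the members themselves, the nearest pair in the opposite direction was Kcnmb4 and Kcnn3 (r = −0.919 over 12 libraries, −0.577 over the 10 without mice 16 and 55). Kcnma1 and Kcnn2, the main BK and SK genes of Purkinje cells, had r = 0.659 over 12 and 0.687 over 10 libraries. Kcnn1 and Kcnn3 had r = 0.770 over 12 and −0.169 over 10 libraries, so the 2 mice decided the sign.

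**Figure D5:**
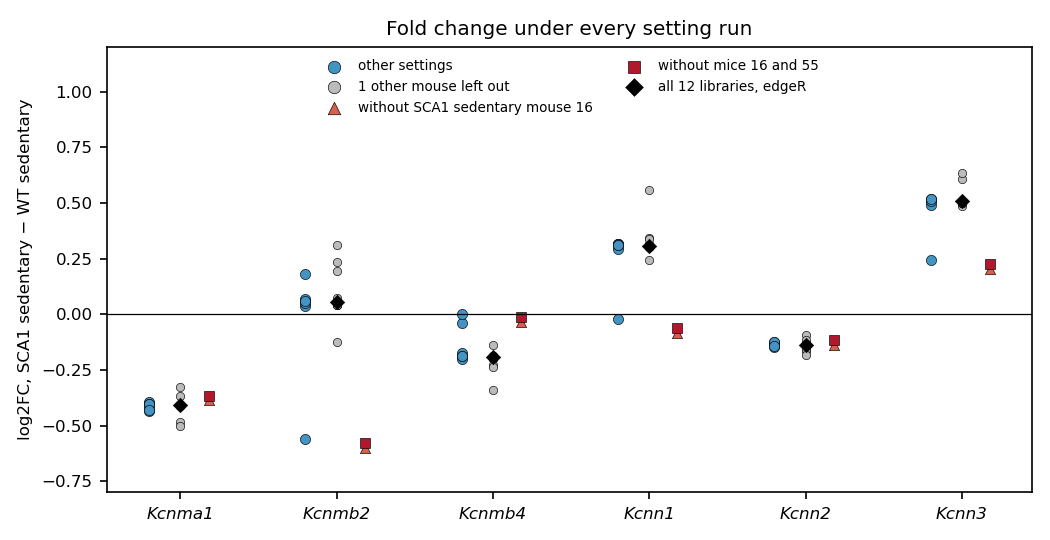
Log2FC of SCA1 sedentary against WT sedentary mice for each channel gene under every setting run, with the edgeR fit to all 12 libraries as a diamond, other settings in blue, other single mice left out in grey, mouse 16 left out as a triangle and mice 16 and 55 left out as a square. Kcnma1 stays between −0.50 and −0.33 throughout. Kcnn1 and Kcnmb2 cross 0 without mouse 16 and in some other settings, and Kcnmb4 crosses 0 with the mouse-number bands as a block (0.0021).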

How the data were processed

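Total RNA from frozen cerebellum was depleted of ribosomal RNA and made into strand-specific libraries. The methods give an RNA integrity number above 8 for all but 2 samples, not named in the sources used here, whose fragmentation and amplification were changed. Per the labels, reads were checked with FastQC 0.11.9, trimmed with fastp 0.24.0 and aligned to GRCm39 with STAR 2.7.10a. The authors deposited the counts of read pairs per gene that STAR wrote, without normalization, unstranded and for each strand. The count for the reverse strand was used here, and pairs mapped to several places are not counted, which could affect sequences shared by the related Kcnn genes.

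Counts were fitted over 4 groups with edgeR 4.0.16 (R 4.3.3, limma 3.58.1) after filterByExpr and TMM scaling, with Benjamini-Hochberg adjustment over 20341 genes. CPM and log2 CPM (prior count 2) came from the same scaling. The fit was tested on simulated data. Of 56941 gene IDs, 56323 matched GENCODE M39 on GRCm39, which gave symbols, exon lengths and promoters. Alternatives were DESeq2 1.42.0, RLE scaling, other count filters, unstranded counts, edgeR on 2 groups alone, no limit on log2FC, bands of mouse numbers (under 100, 100 to 150, over 150) as a block, and mice 16 and 55 or each mouse left out. The lowest of these bands holds only mice 16 and 55, so that block is not a separate check from leaving them out. Replicates are separate mice. The members, the gene lists and these choices were made with earlier results of these data known. The genes named are the 6 members, Atxn1, up to 4 genes of each pathway or marker list beside those with too few counts or no difference, and the 3 most like genes of each member.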

Additional observations from a re-analysis of the deposited data

How the results depend on the processing

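No channel gene was called in any comparison under any setting with edgeR or DESeq2, and Kcnma1 was lower in SCA1 mice throughout, both between sedentary groups (log2FC −0.50 to −0.33, unadjusted p from 0.00118 to 0.0285, adjusted p from 0.0743 to 0.807) and over both activity groups (−0.36 to −0.27, adjusted p from 0.0429 to 0.560). Of 942 log2FC values of the channel genes under other settings, 53 turned their sign, all of them of genes that were not called, and the cause was not tested. The number of all genes called between sedentary groups was 7, but 201 with DESeq2, 205 leaving out mice 16 and 55, 76 keeping every gene with 1 count or more, 55 with mouse-number bands as a block and 0 with edgeR on the 2 groups alone or without WT sedentary mouse 116 or 117. Over both activity groups it was 24, but 179 with DESeq2, 142 leaving out mice 16 and 55, 125 keeping every gene with 1 count or more, 84 with the bands as a block, 13 with unstranded counts, and 0 to 63 with 1 mouse left out.

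Without mice 16 and 55, the log2FC turned sign for Kcnmb2 between sedentary groups (−0.58), over both activity groups (−0.24) and with exercise in SCA1 mice (0.074), for Kcnn1 between sedentary groups (−0.062) and with exercise in SCA1 mice (0.088), for Kcnmb4 with exercise in SCA1 mice (−0.012), between exercise groups (0.039) and over both activity groups (0.012), and for Kcnn3 between exercise groups (−0.030) and with exercise over both genotypes (0.017). The block of mouse-number bands largely sets the same mice apart, since its lowest band holds only mice 16 and 55. With the mouse-number bands as a block the sign turned for Kcnmb2 between sedentary groups (−0.56) and over both activity groups (−0.26), for Kcnmb4 between sedentary groups (0.0021), between exercise groups (0.034), over both activity groups (0.018) and with exercise in SCA1 mice (−0.013), for Kcnn1 between sedentary groups (−0.019) and between SCA1 exercise and WT sedentary mice (−0.080), and for Kcnn3 between exercise groups (−0.094). Unstranded counts turned Kcnmb4 with exercise in WT mice (0.32), over both genotypes (0.17) and in the interaction (−0.31), Kcnn2 with exercise in WT mice (0.0032), and Kcnmb2 between SCA1 exercise and WT sedentary mice (0.053). With at least 10 counts in every library Kcnmb4 with exercise in SCA1 mice was −0.0011.

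With 1 mouse left out in turn, the log2FC ranged as follows where the sign turned. With exercise in WT mice it was −0.011 to 0.15 for Kcnma1 and −0.061 to 0.034 for Kcnn2. With exercise in SCA1 mice it was −0.56 to 0.55 for Kcnmb2, −0.15 to 0.16 for Kcnmb4, −0.38 to 0.27 for Kcnn1 and −0.39 to 0.051 for Kcnn3. Between sedentary groups it was −0.60 to 0.31 for Kcnmb2 and −0.082 to 0.56 for Kcnn1, and between exercise groups −0.23 to 0.039 for Kcnmb4 and −0.030 to 0.18 for Kcnn3. Between SCA1 exercise and WT sedentary mice it was −0.51 to 0.16 for Kcnmb2. Over both activity groups it was −0.016 to 0.60 for Kcnmb2 and −0.054 to 0.018 for Kcnn2. For exercise over both genotypes it was −0.11 to 0.048 for Kcnmb4 and −0.12 to 0.094 for Kcnn3, and for the interaction −0.082 to 0.23 for Kcnmb4 and −0.040 to 0.61 for Kcnn1. No paired analysis was possible because the groups share no mouse numbers.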
